A study of Mus musculus with 20 samples.

Results

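The comparison described here sets the ileal mucosa of DNBS-treated mice given CEC by mouth against that of healthy mice. It uses 10 of the 20 samples of the series, 5 in each of these groups, and all assays that gave at least 3 values in each group: 572 of 648 assays, for 517 of 584 gene symbols. The CEC group received DNBS intrarectally and CEC orally, and the healthy group received PBS by both routes. The other groups, used here for side-by-side values, were a DNBS group (DNBS intrarectally, PBS orally) and a Nissle group (DNBS intrarectally, Nissle orally), again of 5 samples each. CEC and Nissle are known here by those names alone. Strain, sex, age, doses and the time between treatment and sampling are not stated in the labels. Because the CEC mice carried both the DNBS and the oral treatment while the healthy mice had neither, any difference between these groups belongs to the pair of treatments, and the part of each cannot be told apart in this comparison. The series text also speaks of RNA pooled over mice, so whether a sample is 1 animal is unclear, and p-values cover only how much these samples vary, and that variation may be technical.

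DNBS, dinitrobenzene sulfonic acid, is a hapten that provokes an acute, transmural inflammation of the colon when given rectally, with an influx of neutrophils and monocytes. The ileum lies upstream of the site of instillation. Its mucosa is an absorptive epithelium over a lamina propria rich in resident macrophages and lymphocytes, and calprotectin (S100a8 with S100a9), chemokines, cytokines and acute-phase proteins are the usual transcripts by which intestinal inflammation is followed. In total RNA of such a tissue, a lower level of a marker can mean fewer cells of a type or less of its RNA per cell, and these cannot be told apart.

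Each assay was a TaqMan real-time PCR on an OpenArray inflammation panel, read as a cycle threshold (Ct), the cycle at which fluorescence crosses a fixed line, so that a lower Ct means more template. Levels are given relative to the sample: the sample's mean Ct, taken over the 544 assays that were measured in every one of the 20 samples, minus the Ct of the assay. A level of 0 is the sample's mean, and 1 unit is a factor of 2 under the assumption, not tested, that product doubles at each cycle. The mean Ct was 23.52 ± 0.469 cycles in the CEC samples and 23.56 ± 0.370 cycles in the healthy samples (SD, n = 5 each), and the number of assays with a value was 584.8 ± 5.12 in the CEC samples and 577.8 ± 7.63 in the healthy samples. Neither difference passed a two-sided exact permutation test (p = 0.889 and p = 0.135), where 0.00794 is the smallest p that 5 against 5 allows. The label of the tissue was checked against epithelial transcripts in the 10 samples compared. Reg3g, an antimicrobial lectin of the small intestine, had a Ct of 11.5 to 13.9. Ccl25, the chemokine that draws lymphocytes to the small intestine, had one of 16.8 to 18.9. The assay for Apoa4, an apolipoprotein of enterocytes, had no value in any sample.

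Samples that stood apart have to be named before the results. Healthy 5 was the highest of the 10 samples in 185 of the 551 assays with all 10 values (33.6%) and the lowest in 121 (22.0%). Within the CEC group, CEC 1 was the highest in 85 and the lowest in 90 of these assays, and CEC 3 was the highest in 60 and the lowest in 124. Each of the other 7 samples was the highest in 23 to 42 assays and the lowest in 16 to 47. The SD of the differences between a pair of samples, over the 560 to 577 assays measured in both, was 0.729 to 1.48 within the CEC group and 0.826 to 1.77 within the healthy group. Of the assays named by rule, the difference between the groups moved by more than 1.5 times or turned sign in 18 of 81 without CEC 1, in 19 of 82 without CEC 3 and in 32 of 81 without healthy 5. The value without the sample stands beside such a difference below.

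Of the 572 assays, 1 was called (0.175%): Atrn, which fell in the CEC group. No assay rose (0.00%). At an unadjusted p under 0.05 there were 22 assays (3.85%), 10 of them higher in the CEC group (1.75%) and 12 lower (2.10%). The mean was higher in the CEC group for 251 assays (43.9%), and the median difference over all assays was -0.08, with quartiles at -0.36 and 0.31. The median standard error of a difference was 0.42, so that most differences were smaller than their error. Differences of more than 1 log2 unit were found for 30 assays in the higher direction and 14 in the lower. The smallest adjusted p of an assay other than Atrn was 0.808, shared by most of the assays described below, and it is not repeated at each of them.

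**Figure D1:**
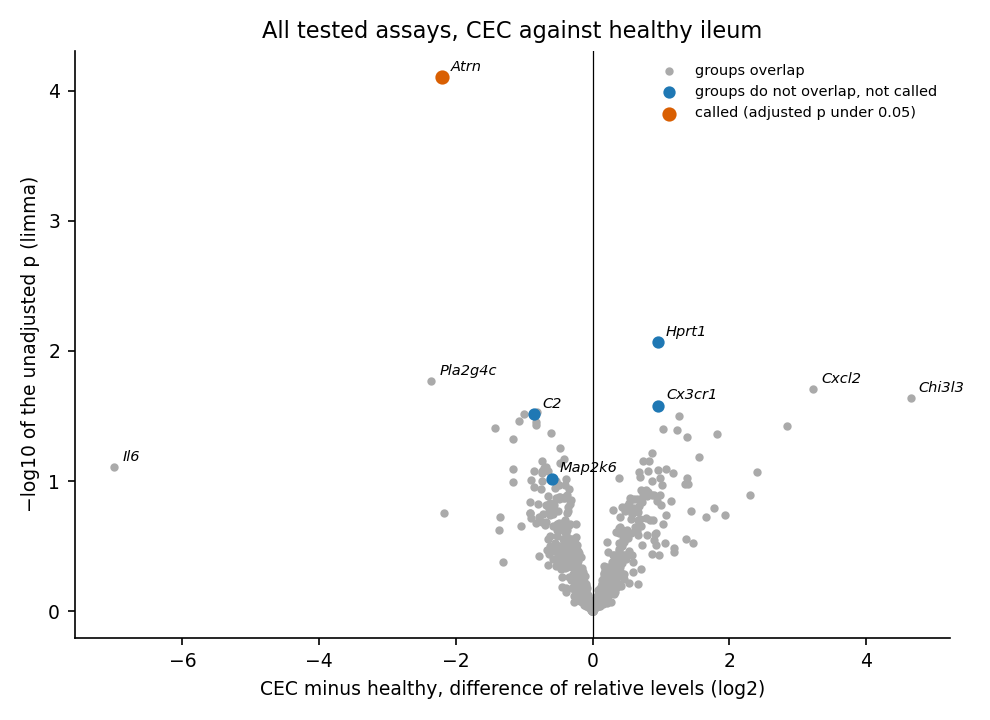
Difference of mean relative level, CEC minus healthy (log2, x axis), against -log10 of the unadjusted limma p (y axis) for all 572 tested assays, 1 point per assay. The called assay, Atrn, stands alone at the upper left, and the 4 further assays whose groups do not overlap lie among the rest.

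Atrn encodes attractin, a transmembrane and secreted glycoprotein known in mice from the mahogany coat-colour mutants and described in human blood as a factor in the clustering of T cells with monocytes. In the order CEC 1, 3, 5, 7 and 8 and healthy 1b, 3, 4, 5 and 6, which is kept throughout, its level was 0.88, 0.64, 0.81, -0.66 and 0.89 in the CEC samples, against 2.89, 3.91, 3.34, 1.39 and 2.02 in the healthy samples. Every CEC sample lay below every healthy sample, CEC 7 was the lowest, and healthy 5 was the lowest of its group. The means were 0.51 ± 0.66 in the CEC group and 2.71 ± 1.01 in the healthy group (SD, n = 5 each). The difference was -2.20 (SE 0.45, adjusted p = 0.0452 by limma), a level 4.59 times as high in healthy as in CEC ileum. Before any centring, its Ct was 22.2 to 24.9 cycles in the CEC samples and 19.6 to 22.4 cycles in the healthy samples, where CEC 5 and healthy 5 overlap.

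The Atrn call was close to its threshold. Without any 1 of the 5 CEC samples the adjusted p was 0.0750 to 0.215, without healthy 1b, 3 or 4 it was 0.157 to 0.213, without DNBS 3, 4 or 5 it was 0.0574 to 0.0666, and without Nissle 1, 2 or 3 it was 0.0560 to 0.0675, so that 14 of 20 such fits lost the call. The difference itself stayed between -2.53 and -1.90 over these 20 fits. The call was also lost after quantile normalization (adjusted p = 0.134 by limma), without normalization (0.991), centred on the median (0.0572), with both groups fitted alone (0.207), without the variance trend (0.0752) and with the replicate block (0.790). The level was low in the other DNBS-treated groups too: -1.16, 0.37, -0.05, -0.12 and -0.71 in the DNBS group and 0.05, 0.77, 0.04, -0.62 and 1.07 in the Nissle group. All 15 samples of DNBS-treated mice thus lay below all 5 healthy samples. These comparisons share the healthy samples: the difference from healthy was -2.20 for CEC, -3.04 for DNBS and -2.45 for Nissle. CEC minus DNBS was 0.85 (SE 0.45, adjusted p = 0.482) and CEC minus Nissle was 0.25 (adjusted p = 0.998).

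**Figure D2:**
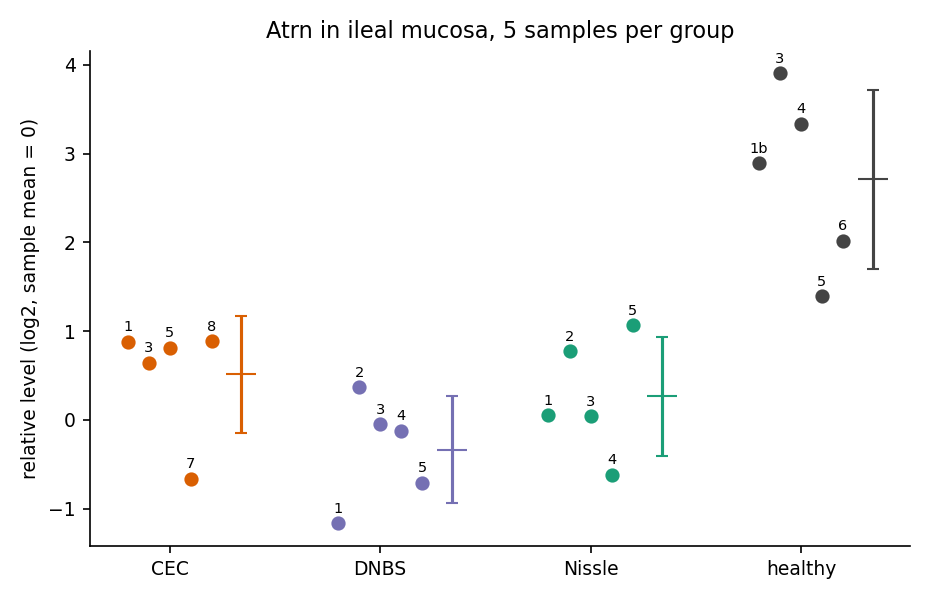
Relative level of Atrn (log2, sample mean = 0, y axis) in each of the 20 samples by group, with sample numbers at the points and the group mean ± SD (n = 5) beside them. The 5 healthy samples lie between 1.39 and 3.91, above all CEC samples (-0.66 to 0.89).

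Beside Atrn, 4 assays had groups that did not overlap, for 5 of 572 in all (0.874%): 2 with all CEC samples above (0.350%) and 3 with all below (0.524%). None of these 4 was called. Cx3cr1 encodes the fractalkine receptor, a marker of resident intestinal macrophages. Its level was -0.13, -0.29, -0.71, -0.52 and -0.49 in the CEC samples, against -0.89, -1.13, -0.83, -2.87 and -1.18 in the healthy samples. The CEC samples were close together, and healthy 5 lay far under the rest of its group. The difference was 0.95 (SE 0.40), and 0.58 without healthy 5. Hprt1, an enzyme of purine salvage often used as a reference gene, had 1 of its 4 assays among them, at 3.92, 3.55, 4.24, 3.81 and 3.57 in the CEC samples, against 2.79, 3.53, 3.40, 1.52 and 3.10 in the healthy samples. CEC 3 exceeded the highest healthy sample by a margin in the second decimal, and the lowest value again was that of healthy 5. The difference was 0.95 (SE 0.33), and 0.61 without healthy 5, while the other 3 assays of Hprt1 gave 0.09, -0.10 and -0.11, or -0.047, 0.035 and -0.037 without healthy 5.

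C2, a protease precursor of the classical and lectin complement pathways, lay below in all CEC samples, at 0.46, 0.37, 1.26, 1.48 and 1.40 in the CEC samples, against 1.80, 1.71, 1.74, 2.25 and 1.81 in the healthy samples. Its lowest values were those of CEC 1 and CEC 3. The difference was -0.86 (SE 0.37), -0.73 without CEC 1 and -0.71 without CEC 3. Map2k6, a kinase that activates p38, had -0.94, -1.35, -0.35, -0.23 and -0.35 in the CEC samples, against -0.12, -0.20, -0.04, 0.22 and -0.08 in the healthy samples. Here too CEC 1 and CEC 3 were the lowest, and the other CEC samples lay just under the healthy ones. The difference was -0.60 (SE 0.34).

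Several transcripts of neutrophils and of acute inflammation had wide differences, and in these the 5 CEC samples did not move together. S100a8, a calprotectin subunit abundant in neutrophils, had 2 assays. The first gave 3.71, 3.45, -1.73, -2.02 and -2.50 in the CEC samples, against -0.42, -2.16, -2.69, -1.75 and -1.75 in the healthy samples. CEC 1 and CEC 3 were far above all other samples, and CEC 5, 7 and 8 lay among the healthy ones. The mean difference was 1.94 (SE 1.40), 1.06 without CEC 1 and 1.12 without CEC 3. The second assay gave 2.85, 2.73, -2.73, -1.31 and -2.62 in the CEC samples, against -1.54, -4.57, -4.18, -2.83 and -2.17 in the healthy samples, with the same samples high, and a difference of 2.84 (SE 1.28, unadjusted p = 0.0377), which was 2.08 without CEC 1 and 2.10 without CEC 3. S100a9, the other calprotectin subunit, had 2.28, 2.18, -3.05, -3.02 and -2.51 in the CEC samples, against -1.71, -2.96, -3.75, -4.08 and -3.13 in the healthy samples. The order was the one seen for S100a8: CEC 1 and CEC 3 high, the other CEC samples within the healthy range. The difference was 2.30 (SE 1.45), 1.53 without CEC 1 and 1.55 without CEC 3.

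Chi3l3 (current symbol Chil3, also known as Ym1) encodes a chitinase-like protein of mouse macrophages and neutrophils, and had the largest positive difference of all 572 assays. Its level was 2.86, 3.61, -4.88, -3.40 and -6.21 in the CEC samples, against -5.90, -4.71, -6.61, -4.43 and -9.62 in the healthy samples. CEC 1 and CEC 3 exceeded every other sample by several units, and the 3 other CEC samples overlapped the healthy group. The difference was 4.65 (SE 1.89, unadjusted p = 0.0229), and 3.53 without CEC 1 or 3.35 without CEC 3. Cxcl2, a chemokine that recruits neutrophils, had -0.85, -1.10, -4.98, -4.07 and -4.97 in the CEC samples, against -7.26, -6.45, -4.44, -6.19 and -7.75 in the healthy samples. Again CEC 1 and CEC 3 were the highest, but only healthy 4 reached into the range of the other CEC samples. The difference was 3.22 (SE 1.28, unadjusted p = 0.0198), 2.64 without CEC 1 and 2.70 without CEC 3.

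In Saa1, Selp and Itgam, too, CEC 1 and CEC 3 were the highest CEC samples. Saa1, an acute-phase apolipoprotein also made by intestinal epithelium, had 5.77, 5.83, 2.51, 2.24 and 3.88 in the CEC samples, against 1.04, 2.79, 3.59, 2.89 and 3.01 in the healthy samples. Its difference of 1.38 (SE 0.65) was 0.94 without CEC 3. Selp, P-selectin, on which leukocytes roll along activated endothelium, had -1.71, -1.66, -4.39, -3.04 and -3.61 in the CEC samples, against -3.93, -4.0, -3.94, -3.77 and -4.14 in the healthy samples. The healthy samples were close together, CEC 1 and CEC 3 lay well above them, CEC 7 and 8 somewhat above, and CEC 5 under them. Its difference was 1.07 (SE 0.59). Itgam, the CD11b integrin chain of neutrophils and monocytes, had 2.77, 2.16, 1.13, 0.66 and 1.23 in the CEC samples, against -0.04, 1.29, 1.15, 1.0 and 0.44 in the healthy samples, with a difference of 0.82 (SE 0.43) and 0.53 without CEC 1.

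**Figure D3:**
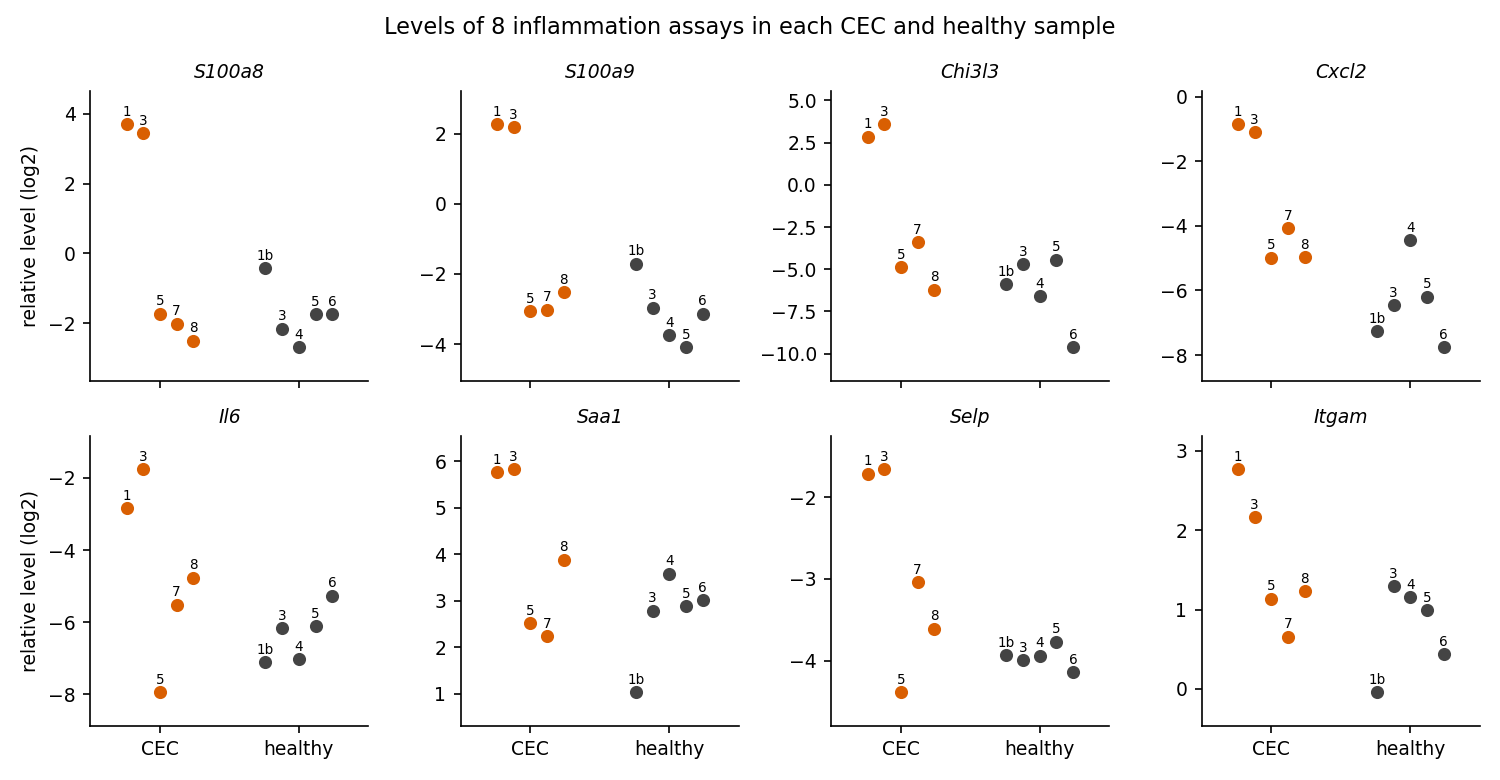
Relative level (log2, y axis, its own scale in each panel) of 8 assays in each CEC sample (left) and each healthy sample (right), with sample numbers at the points. In all 8 panels CEC 1 and CEC 3 are the highest of the CEC samples, and the other CEC samples overlap the healthy group.

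The list of neutrophil markers as a whole was S100a8, S100a9, Ltf (lactoferrin), Camp (cathelicidin), Ncf1 (an NADPH oxidase subunit), Fpr1 (a formyl peptide receptor), and the chemokine receptors Il8ra and Il8rb (current symbols Cxcr1 and Cxcr2). All 8 were measured: 6 of 8 measured members had a higher mean in the CEC group and 2 a lower one, none called, with a median difference of 0.37, against -0.09 over all 517 genes, of which 223 were higher and 294 lower. The mean level over the 8 was -0.59, -0.20, -2.55, -2.93 and -2.36 in the CEC samples, against -1.64, -2.67, -3.08, -2.62 and -2.34 in the healthy samples. CEC 1 and CEC 3 were again above all other samples, and the other CEC samples were within the healthy range. Of the members beyond calprotectin, Ltf had -0.81, 0.51, -1.17, -2.25 and -1.39 in the CEC samples, against -1.78, -1.62, -1.96, -1.67 and -1.39 in the healthy samples. There CEC 3 was the highest and CEC 7 the lowest of all 10. Ltf differed by 0.66 (SE 0.57), or 0.28 without CEC 3. Il8rb was uneven too, at -4.56, -1.79, -4.47, -6.16 and -3.11 in the CEC samples, against -3.87, -4.68, -4.85, -7.52 and -5.13 in the healthy samples. CEC 3 was the highest, but CEC 1 lay within the healthy range. Il8rb differed by 1.19 (SE 1.19), or 0.64 without CEC 3 and 0.61 without healthy 5. Ncf1 differed by -0.23 (SE 0.29), or -0.15 without CEC 1 and -0.071 without healthy 5. Camp, Fpr1 and Il8ra differed by 0.09, 0.01 and 0.00, and without CEC 1 by -0.32, -0.30 and -0.071. Without CEC 3 these were -0.34, -0.071 and 0.044, and without healthy 5 they were 0.21, 0.18 and 0.055.

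A wide spread was more common among the CEC than among the healthy samples: an SD above 2 was found for 18 assays in the CEC group and for 4 in the healthy group. Saa3, another acute-phase serum amyloid, was among them and was chosen for its spread, after its values were seen. Its level was 6.86, 5.78, -0.76, 0.50 and 0.36 in the CEC samples, against 1.20, 3.36, -0.10, 0.76 and 1.59 in the healthy samples. CEC 1 and CEC 3 were the highest and the other CEC samples were at or under the middle of the healthy range. Ptx3, a long pentraxin induced in inflamed tissue and chosen in the same way, had -2.14, -2.01, -7.0, -6.74 and -4.72 in the CEC samples, against -4.76, -6.47, -5.71, -5.76 and -7.22 in the healthy samples, with CEC 1 and CEC 3 on top. Il22 (the assay is annotated to Il22 and Iltifb), a cytokine that acts on the epithelium and was chosen likewise, had -2.10, -2.06, -6.73, -3.43 and -6.65 in the CEC samples, against -3.96, -8.40, -7.55, -6.09 and -6.96 in the healthy samples. Healthy 1b came next after CEC 1, 3 and 7. A spread of the opposite order was found in Pla2g4c, a calcium-independent cytosolic phospholipase, at -4.85, -6.27, -2.43, -1.40 and -1.84 in the CEC samples, against -3.07, -0.34, 0.38, -0.76 and -1.16 in the healthy samples. The lowest of all 10 samples were CEC 1 and CEC 3. The difference was -2.37 (SE 0.91, unadjusted p = 0.0171), -1.99 without CEC 1 and -1.64 without CEC 3.

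Of the cytokines and enzymes by which colitis is usually followed, none passed the test. Il6 had 2 assays among those tested. The first gave -2.85, -1.75, -7.94, -5.51 and -4.76 in the CEC samples, against -7.11, -6.17, -7.02, -6.11 and -5.26 in the healthy samples. CEC 3 and CEC 1 were the highest, CEC 5 was the lowest of all 10, and the difference was 1.77 (SE 1.22), 1.34 without CEC 1 and 1.07 without CEC 3. The second assay gave -6.99 (SE 3.76), a value set by healthy 5, whose level of 18.05 stood against -7.46 and -6.20 in the only other healthy samples with a value. That level came from the single Ct under 10 among all samples, and without healthy 5 this assay no longer had 3 values in the healthy group.

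Il1b, the inflammasome-processed cytokine, had -1.34, 0.91, -1.70, -2.07 and -1.20 in the CEC samples, against -1.84, -1.16, -0.81, -4.26 and -2.15 in the healthy samples by the first of its 2 assays. CEC 3 was the highest and healthy 5 the lowest, and the rest lay together. This assay differed by 0.96 (SE 1.06), or 0.47 without CEC 3 and 0.41 without healthy 5. The second differed by -0.17 (SE 0.80), or 0.17 without CEC 1, -0.60 without CEC 3 and 0.12 without healthy 5. Ifng, the macrophage-activating cytokine of T and NK cells, gave 1.35 (SE 0.79) and 0.18 (SE 0.59). In both Ifng assays healthy 5 was far below the other healthy samples, and without it the differences were 0.65 and -0.19. The second was -0.22 without CEC 3. The assays for Il12b, the p40 chain shared by IL-12 and IL-23, gave 0.93 (SE 0.78) and -0.16 (SE 0.85), the second being 0.43 without CEC 1, -0.34 without CEC 3 and 0.030 without healthy 5. Il17a, which drives neutrophil responses, had -7.43 to -4.93 in the CEC samples and -7.20 to -5.64 in the healthy samples and differed by -0.12 (SE 0.88), or -0.47 without CEC 3 and -0.37 without healthy 5. Nos2, the inducible nitric oxide synthase that small-intestinal epithelium also expresses, had 2.79 to 4.31 in the CEC samples and 1.12 to 4.02 in the healthy samples and differed by 0.72 (SE 0.47), or 0.26 without healthy 5, the lowest sample. Ptgs2, cyclooxygenase-2, had -4.58 to -2.51 in the CEC samples and -4.60 to -2.91 in the healthy samples and differed by 0.17 (SE 0.59), or 0.49 without CEC 1. The single assays for Tnf and for Il10 stood at the value for no amplification in every sample of the series, so those cytokines have no level here.

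Over the list of pro-inflammatory cytokines 9 of 18 measured members had a higher mean in the CEC group and 9 a lower one, none called, with a median difference of 0.08. Its Il6 entry is the assay set by healthy 5. The pair with the smallest p were both lower: Ltb, lymphotoxin beta, which organises lymphoid tissue, and Lif, a cytokine of the IL-6 family. Ltb had -0.34, 0.96, 0.40, 0.50 and 0.83 in the CEC samples, against 0.99, 0.79, 0.94, 1.96 and 1.71 in the healthy samples, with CEC 1 lowest, and differed by -0.81 (SE 0.35, unadjusted p = 0.0294). Lif had -3.78, -4.57, -3.58, -3.55 and -3.02 in the CEC samples, against -3.43, -3.50, -2.70, -2.09 and -2.44 in the healthy samples, with CEC 3 lowest, and differed by -0.87 (SE 0.37, unadjusted p = 0.0298). In the list of type 2 and regulatory cytokines, 4 of 8 measured members had a higher mean in the CEC group and 4 a lower one, none called, with a median difference of -0.03. Tgfb2, of the growth factors that restrain inflammation and shape the stroma, differed by -0.65 (SE 0.36), or -0.40 without CEC 3. Il2, a T cell growth factor, differed by 0.72 (SE 0.68), which was 1.10 without CEC 1 and 0.44 without CEC 3, and Tslp, an epithelial cytokine of type 2 responses, by 0.46 (SE 0.70).

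Markers of macrophages, monocytes and dendritic cells had the highest median of the gene lists. Among them 8 of 11 measured members had a higher mean in the CEC group and 3 a lower one, none called, with a median difference of 0.79, and 3 of the 11 had an unadjusted p under 0.05, where the share over all assays was 3.85%. These 3 were Chi3l3, Cx3cr1 and Cd86. Cd86, a costimulatory ligand of antigen-presenting cells, had -1.22, -1.63, -2.06, -2.04 and -2.23 in the CEC samples, against -2.13, -2.15, -2.11, -4.56 and -4.55 in the healthy samples. The CEC samples were close together and overlapped the upper healthy samples, while healthy 5 and healthy 6 lay far below. The difference was 1.27 (SE 0.55), and 0.90 without healthy 5. Fcgr2b, an inhibitory Fc receptor, and Cd163, a scavenger receptor of resident macrophages, belong to the same list and differed by 1.37 (SE 0.78) and 0.79 (SE 0.50). Without healthy 5 the Fcgr2b difference was 0.75, and without CEC 3 the Cd163 difference was 0.47. Mrc1, the mannose receptor, differed by 0.12, or by -0.044 without CEC 1, -0.020 without CEC 3 and 0.30 without healthy 5. Cd80 differed by -0.04, or by -0.089 without CEC 1, -0.079 without CEC 3 and 0.059 without healthy 5. The mean level over the 11 members was 0.19, 0.33, -1.35, -0.96 and -1.57 in the CEC samples, against -1.50, -1.17, -1.57, -1.61 and -2.06 in the healthy samples. CEC 1 and CEC 3 stood highest, CEC 7 next, and CEC 5 and 8 were within the healthy range. With levels centred within each run of 54 assays, described below, the median of this list was 0.57.

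For leukocyte adhesion molecules and integrins, 4 of 4 measured members had a higher mean in the CEC group and 0 a lower one, none called, with a median difference of 0.75. These were Selp, Itgam, Itgal and Itgb2, the last being the common chain with which Itgal and Itgam pair. Itgal, the LFA-1 chain of lymphocytes and myeloid cells, had -0.03, 0.07, 0.25, -1.21 and 0.56 in the CEC samples, against -0.56, -0.27, -0.45, -2.42 and -0.07 in the healthy samples. The groups overlapped and healthy 5 was the lowest sample by far. Its difference was 0.68 (SE 0.46), and 0.27 without healthy 5. Itgb2 differed by 0.48 (SE 0.34), or 0.22 without CEC 1 and 0.31 without healthy 5. The mean level over the 4 was 0.71, 0.47, -0.66, -0.95 and -0.30 in the CEC samples, against -1.10, -0.58, -0.73, -1.39 and -0.75 in the healthy samples. Highest, again, were CEC 1 and CEC 3. Chst4, a sulfotransferase that builds selectin ligands on high endothelial venules and is in no list, had 1.77, 2.85, 1.45, 0.46 and 1.90 in the CEC samples, against 1.08, 0.29, 1.30, -0.86 and 0.46 in the healthy samples. CEC 3 was the highest and healthy 5 the lowest, and the difference was 1.23 (SE 0.56, unadjusted p = 0.0404). Apoe, an apolipoprotein that macrophages secrete, had 5.81, 5.10, 3.75, 3.91 and 4.04 in the CEC samples, against 3.76, 4.74, 3.67, 2.03 and 3.29 in the healthy samples, with CEC 1 and CEC 3 highest and a difference of 1.03 (SE 0.47, unadjusted p = 0.0399), which was 0.66 without healthy 5 and 0.46 with levels centred within runs.

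Of the chemokines 10 of 28 measured members had a higher mean in the CEC group and 18 a lower one, none called, with a median difference of -0.15. Cxcl2, described above, was the exception in size. The related neutrophil chemokine Cxcl1 differed by 1.08 (SE 0.78) and 0.93 (SE 0.90) by its 2 assays, and Ccl2, which recruits monocytes, by 1.04 (SE 0.81). Without CEC 3 the second Cxcl1 assay gave 0.45 and Ccl2 gave 0.58. Cxcl9, an interferon-gamma-induced chemokine for Cxcr3-bearing T cells, had 0.03, 1.52, 2.45, 0.78 and 2.0 in the CEC samples, against 2.29, 1.60, 1.71, 3.37 and 2.84 in the healthy samples. The low samples were CEC 1 and CEC 7, and healthy 5 was the highest. Its difference was -1.01 (SE 0.43, unadjusted p = 0.0304), and -0.67 without CEC 1. Xcl1, a chemokine for cross-presenting dendritic cells, had -2.50 to -0.41 in the CEC samples and -1.10 to 0.05 in the healthy samples. Xcl1 differed by -0.74 (SE 0.41), or -0.44 without CEC 1. Ccl25, the ligand of Ccr9, differed by -0.37 (SE 0.49), with CEC 1 at 4.99 and CEC 3 at 4.47 below all other samples, and by -0.23 without CEC 1 or -0.10 without CEC 3.

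Among chemokine and chemoattractant receptors 14 of 27 measured members had a higher mean in the CEC group and 13 a lower one, none called, with a median difference of 0.01. Besides Cx3cr1 the smallest p-values were those of Ltb4r1 and Ccr9. Ltb4r1, the leukotriene B4 receptor of neutrophils and other leukocytes, had -1.88, -1.82, -3.76, -4.10 and -2.74 in the CEC samples, against -4.93, -3.88, -3.82, -2.99 and -3.74 in the healthy samples. CEC 1, CEC 3 and CEC 8 were the highest, and the difference was 1.01 (SE 0.60). Ccr9, the homing receptor of small-intestinal T cells, had 0.67, -0.50, 0.38, -0.64 and 0.55 in the CEC samples, against 0.28, -0.31, -0.42, -1.92 and -1.19 in the healthy samples and differed by 0.80 (SE 0.50), or 0.50 without healthy 5. Adora3, an adenosine receptor found on mast cells and other leukocytes, had -5.19, -3.96, -5.20, -6.52 and -5.53 in the CEC samples, against -6.06, -5.72, -6.59, -8.09 and -7.72 in the healthy samples, a difference of 1.56 (SE 0.79).

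In several signalling and receptor lists most members had a lower mean, as had 294 of the 517 genes. For interferon and STAT signalling 7 of 28 measured members had a higher mean in the CEC group and 21 a lower one, none called, with a median difference of -0.28. Irf3, a transcription factor that switches on type I interferon, had 0.30, 1.72, 2.11, 1.68 and 2.52 in the CEC samples, against 2.41, 2.11, 2.39, 3.02 and 2.53 in the healthy samples by the first of 2 assays. CEC 1 was far below all others. The difference was -0.83 (SE 0.37) and -0.48 without CEC 1, and the second assay gave -0.22 (SE 0.31), or 0.045 without CEC 1 and -0.41 without healthy 5. Irf7, which amplifies the type I response, differed by -0.62 (SE 0.61), and Cxcl10, another Cxcr3 ligand, by -0.70 (SE 0.55). Without CEC 3 the Irf7 difference was -0.24, and that of Cxcl10 was -0.42 without CEC 1 and -0.44 without healthy 5. Socs2, a suppressor of cytokine and growth hormone signals, had 1.86, 1.82, 2.23, 2.46 and 2.68 in the CEC samples, against 2.67, 2.50, 2.68, 2.61 and 2.48 in the healthy samples. The healthy samples were tight, CEC 1 and CEC 3 were the lowest, and the difference was -0.38 (SE 0.24).

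For interleukin receptors 8 of 26 measured members had a higher mean in the CEC group and 18 a lower one, none called, with a median difference of -0.24. Il12rb2, the signalling chain of the IL-12 receptor, had -5.07, -4.38, -3.05, -3.91 and -2.49 in the CEC samples, against -2.73, -3.50, -3.23, -1.43 and -2.16 in the healthy samples. CEC 1, 3 and 7 were the lowest, and the difference was -1.17 (SE 0.64). Il1rl1, the receptor of IL-33, had -3.03, -3.24, -0.23, -1.10 and 0.34 in the CEC samples, against -0.71, -0.17, -0.44, -1.20 and -0.13 in the healthy samples. Far under every other sample were CEC 1 and CEC 3, and the remaining CEC samples overlapped the healthy group. The difference was -0.92 (SE 0.66), or -0.53 without CEC 1 and -0.48 without CEC 3. Il2rg, the chain shared by the receptors of IL-2 and related cytokines, differed by -0.60 (SE 0.41), or -0.34 without CEC 1 and -0.36 without healthy 5.

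For the TNF superfamily 6 of 22 measured members had a higher mean in the CEC group and 16 a lower one, none called, with a median difference of -0.18. Fas, a death receptor, had -0.20, -0.20, 1.29, 1.15 and 0.95 in the CEC samples, against 1.39, 3.22, 0.47, 2.05 and 1.25 in the healthy samples. At the low end were CEC 1 and CEC 3, and healthy 3 was the highest. The difference was -1.08 (SE 0.48, unadjusted p = 0.0345). Tnfrsf9, a costimulatory receptor of T cells also called 4-1BB, had -4.55 to -2.14 in the CEC samples and -2.90 to -0.96 in the healthy samples and differed by -0.86 (SE 0.48), or -0.47 without CEC 1. For Toll-like receptor and NF-kB signalling 9 of 25 measured members had a higher mean in the CEC group and 16 a lower one, none called, with a median difference of -0.16. Tlr3, the sensor of double-stranded RNA, had 0.17, 0.38, 1.92, 1.74 and 1.55 in the CEC samples, against 1.72, 1.61, 1.65, 3.05 and 1.84 in the healthy samples. Here CEC 1 and CEC 3 were the lowest and healthy 5 the highest, and the other 7 samples lay close together. The difference was -0.82 (SE 0.37, unadjusted p = 0.0370), -0.58 without CEC 1 and -0.55 without healthy 5. Rela, an NF-kB subunit, differed by -0.36 (SE 0.24), and Tlr5, the flagellin receptor, by -0.41 (SE 0.31). Without healthy 5 these were -0.23 and -0.22, and Tlr5 was -0.21 without CEC 3. An assay annotated to both Tlr1 and Tlr6, which form receptors with Tlr2, gave -0.62 (SE 0.29, unadjusted p = 0.0427), or -0.40 without healthy 5.

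Complement and acute-phase genes were divided. Here 14 of 25 measured members had a higher mean in the CEC group and 11 a lower one, none called, with a median difference of 0.02. C2 was low and Saa1 high in the CEC group, as given above. Cr2, a complement receptor of B cells and follicular dendritic cells, had -6.33, -2.92, -2.57, -2.45 and -1.81 in the CEC samples, against -2.37, -2.41, -2.14, -2.22 and -1.12 in the healthy samples, with CEC 1 far below the others. The difference was -1.17 (SE 0.68), and -0.39 without CEC 1.

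In the eicosanoid pathway 9 of 13 measured members had a higher mean in the CEC group and 4 a lower one, none called, with a median difference of 0.39. The lower end was Pla2g4c, described above. Alox5, the 5-lipoxygenase that starts leukotriene synthesis, had 6 assays, which differed by -0.08 to 0.69, or by -0.17 to 0.55 without healthy 5. The one at the upper end had -1.93, -1.99, -2.44, -1.51 and -2.09 in the CEC samples, against -2.89, -2.03, -2.02, -3.69 and -2.79 in the healthy samples, with a difference of 0.69 (SE 0.39), which was 0.44 without healthy 5. Alox5ap, its activating protein, had 0.84, 0.43, -1.38, -1.80 and -1.64 in the CEC samples, against -2.28, -1.25, -1.53, -1.88 and -1.06 in the healthy samples. The high samples were CEC 1 and CEC 3, and the difference was 0.89 (SE 0.56), or 0.50 without CEC 1. Ptgs1, the constitutive cyclooxygenase, differed by 0.86 (SE 0.55) and Ptges, a prostaglandin E synthase, by 0.78 (SE 0.57), or 0.36 and 0.26 without healthy 5.

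In MAP kinase and PI3 kinase signalling 4 of 10 measured members had a higher mean in the CEC group and 6 a lower one, none called, with a median difference of -0.19. Mapk14, p38 alpha, had 2.31, 2.52, 3.03, 2.94 and 2.83 in the CEC samples, against 3.04, 2.92, 3.0, 3.53 and 3.55 in the healthy samples. Lowest were CEC 1 and CEC 3, highest healthy 5 and 6, and the difference was -0.48 (SE 0.24). Mapk8, the stress kinase JNK1, had 2.08, 1.11, 1.14, -0.11 and 1.0 in the CEC samples, against 1.02, 0.79, 0.92, -1.62 and -0.65 in the healthy samples, with healthy 5 lowest, and differed by 0.95 (SE 0.52), or 0.52 without healthy 5. For the TGF-beta, BMP and GDF family 11 of 23 measured members had a higher mean in the CEC group and 12 a lower one, none called, with a median difference of -0.09. Bmp8b, a bone morphogenetic protein, had -3.38, -3.91, -0.86, -0.67 and -2.84 in the CEC samples, against -1.06, -1.34, -1.25, -2.02 and -1.41 in the healthy samples. CEC 3, 1 and 8 were the lowest, and the difference was -0.92 (SE 0.61), or -0.52 without CEC 3. Bmp3, an atypical member that restrains BMP signals, differed by -0.33 (SE 0.22) and 0.34 (SE 0.61) by its 2 assays, the second being 0.21 without CEC 3 and -0.090 without healthy 5. Lefty2, a secreted antagonist of Nodal, differed by -1.43 (SE 0.65, unadjusted p = 0.0391) and -0.43 (SE 0.54) by its 2 assays, the second being -0.20 without CEC 3 and -0.16 without healthy 5.

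Markers of T, B and NK cells had the lowest median of the lists. Among them 2 of 8 measured members had a higher mean in the CEC group and 6 a lower one, none called, with a median difference of -0.43. Cd4, the coreceptor of helper T cells, had -0.55, -0.99, -0.58, -1.30 and -0.68 in the CEC samples, against -0.64, -0.44, -0.53, 0.36 and -0.12 in the healthy samples. The groups overlapped, and healthy 5 was the highest. The difference was -0.55 (SE 0.33). Icos, a costimulator of activated T cells, differed by -0.61 (SE 0.44), and Cr2 by the value given above. The mean level over the 8 members was -2.81, -2.42, -2.03, -2.30 and -1.92 in the CEC samples, against -2.38, -2.15, -2.48, -1.14 and -1.63 in the healthy samples. With levels centred within runs of 54 assays the median of the list was -0.17, and the lowest list was then the TNF superfamily at -0.37. For mast cells, basophils and eosinophils 2 of 7 measured members had a higher mean in the CEC group and 5 a lower one, none called, with a median difference of -0.19. Kit, the stem cell factor receptor of mast cells and interstitial cells of Cajal, differed by -0.37 (SE 0.26), and Fcer1g, the signalling chain of Fc receptors, by 0.31 (SE 0.34), or 0.059 without CEC 1. Hrh1, a histamine receptor, had 2 assays, at -1.17 (SE 0.55, unadjusted p = 0.0475) and -0.40 (SE 0.32), the second being -0.22 without CEC 3 and -0.22 without healthy 5.

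Of small-intestinal epithelial genes 7 of 8 measured members had a higher mean in the CEC group and 1 a lower one, none called, with a median difference of 0.41. Muc1, a membrane mucin, had -3.12, -3.13, -4.41, -3.55 and -4.07 in the CEC samples, against -3.80, -4.99, -4.47, -4.14 and -4.55 in the healthy samples. Its 2 highest samples were CEC 1 and CEC 3, and the difference was 0.74 (SE 0.39). Reg3a, an antimicrobial lectin, had 2.12, 2.83, 2.85, 2.37 and 2.58 in the CEC samples, against 2.03, 1.96, 2.30, 1.03 and 2.14 in the healthy samples, with healthy 5 lowest, a difference of 0.66 (SE 0.47) and 0.44 without healthy 5. Apoa1, an apolipoprotein secreted by enterocytes, differed by 0.86 (SE 0.50) and 0.51 (SE 0.45) by its 2 assays, or 0.36 and 0.086 without healthy 5. Slurp1, a secreted protein of epithelia that is in no list, had values in 3 CEC samples and all healthy samples and differed by 1.81 (SE 0.84, unadjusted p = 0.0438). Of the reference genes 11 of 15 measured members had a higher mean in the CEC group and 4 a lower one, none called, with a median difference of 0.15. Their differences ran from -0.36 for Ywhaz, an adaptor protein, to 0.39 for Tfrc, the transferrin receptor, and 0.39 for Polr2a, the large RNA polymerase II subunit. Polr2a differed by 0.083 without healthy 5 and by 0.013 with levels centred within runs, and Ywhaz by -0.21 without CEC 3 and -0.22 without healthy 5.

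**Figure D4:**
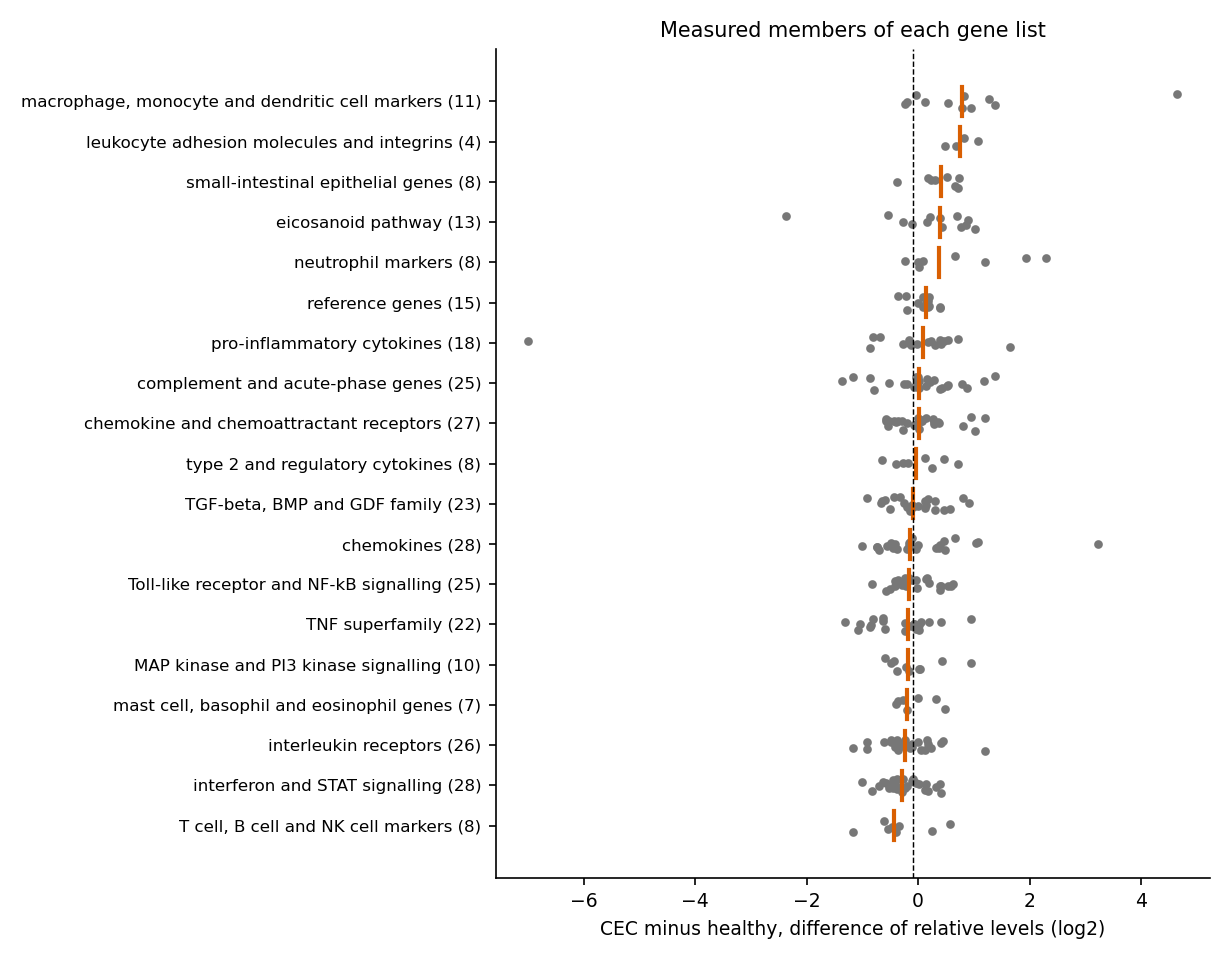
Difference of mean relative level, CEC minus healthy (log2, x axis), for the measured members of 19 gene lists, 1 assay per gene, with the number of members in brackets. Grey points are genes, orange bars the list medians, and the dashed line the median of all 517 genes (-0.09). Macrophage markers lie highest (0.79) and T, B and NK cell markers lowest (-0.43). With levels centred within runs macrophage markers were still highest (0.57), and the TNF superfamily was lowest (-0.37).

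Several genes were measured more than once. Of 44 genes with at least 2 tested assays, 27 had the same sign in the pair compared and 17 the opposite sign, and the median absolute difference between the pair was 0.41. In 5 genes (Il6, Ifng, Il1b, Il12b and Fabp4) the pair differed by more than 1 log2 unit. By the type of assay, those spanning an exon junction (463) had a median difference of -0.07, those marked as able to amplify genomic DNA (55) one of -0.09, and those within a single exon (54) one of -0.20.

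The place of an assay in the deposited table moved with its difference. The 648 assays were taken as 12 successive runs of 54. A sample's shift in a run was its mean deviation from the average of the 20 samples. Between runs this shift spanned 2.76 units in healthy 5, 1.31 in CEC 1 and 1.16 in CEC 3. It spanned 0.511 to 1.01 in the other 7 CEC and healthy samples. In DNBS 5 it spanned 2.43 and in DNBS 1 1.77, against 0.344 to 1.41 in the other DNBS samples. In the first run healthy 5 lay 1.60 below the average of the 20 samples, CEC 1 lay 0.80 above and CEC 3 lay 0.70 above. The median difference between the groups was 0.42 in the first run, where 39 of 44 tested assays were higher in the CEC group, 0.35 in the fourth and 0.32 in the seventh. It was -0.30 in the sixth run and -0.35 in the last, where 40 of 50 were lower. In all, 419 of the 572 assays (73.3%) had the sign of their run's median, and so had 18 of the 22 with an unadjusted p under 0.05 (81.8%). No label says what these runs correspond to on the plates, and their part in the differences was not tested. Atrn lay in the first run, where most assays were higher in the CEC group, and was lower. With levels centred within each run, an analysis added after the data were seen, its difference was -2.76 (adjusted p = 1.12e-07) and it was still the 1 assay called. The differences of Chi3l3, Cxcl2 and the second S100a8 assay were then 4.37, 2.90 and 2.99, while those of Cx3cr1 and the non-overlapping Hprt1 assay were 0.57 and 0.57. Those of Cd86, Ccr9, Mapk8, Nos2 and Itgal fell to 0.70, 0.24, 0.39, 0.39 and 0.36, from 1.27, 0.80, 0.95, 0.72 and 0.68. Some others grew, such as Pla2g4c from -2.37 to -2.69 and Muc1 from 0.74 to 0.88. Centred in this way, 40 of the 82 assays named by rule moved by more than 1.5 times or turned sign, and the list medians were 0.43 for adhesion molecules and integrins and 0.21 for epithelial genes with a change of sign to -0.070 for reference genes and to 0.0074 for mast cells, basophils and eosinophils.

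**Figure D5:**
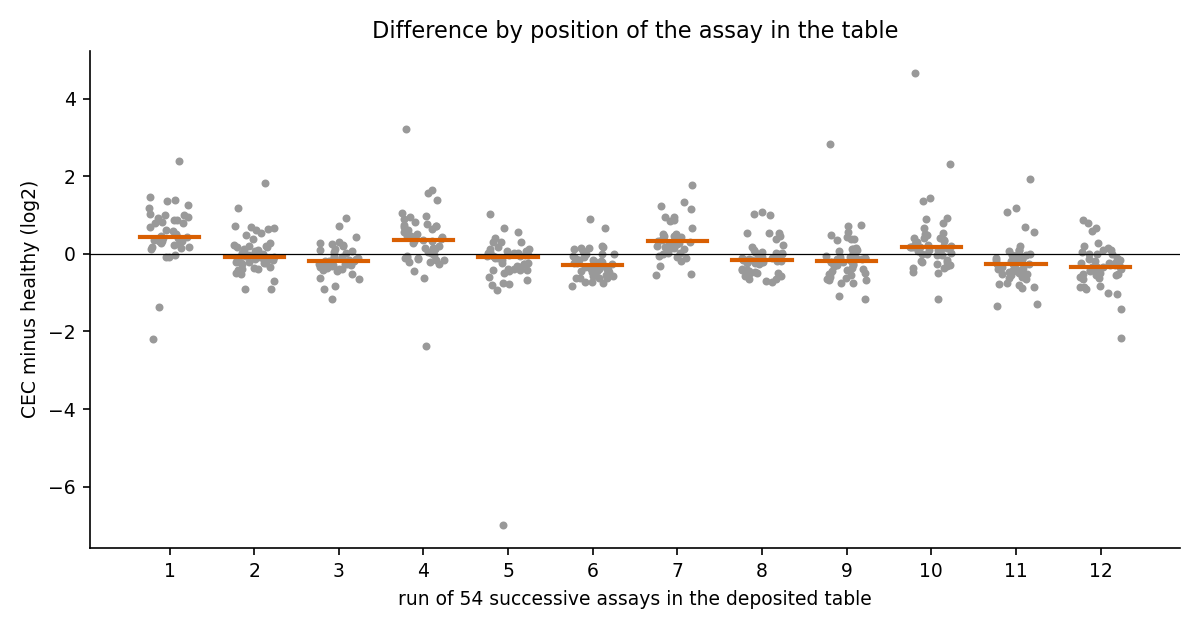
Difference of mean relative level, CEC minus healthy (log2, y axis), of each tested assay by the run of 54 successive assays in which it stands in the deposited table (x axis). Grey points are assays and orange bars the medians of the runs, which range from 0.42 in the first run to -0.35 in the last.

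Assays without a value in some samples were compared by detection. Undetermined values numbered 316 in the CEC group and 351 in the healthy group. Of 63 assays with a value in some but not all of the 10 samples, 36 had a value in more CEC samples, 20 in more healthy samples and 7 in equal numbers. None passed Fisher's exact test after adjustment, and 2 had an unadjusted p under 0.05. The smallest p that 5 against 5 allows in Fisher's exact test is 0.00794, and a single such assay among the 63 had an adjusted p of 0.5. A lone assay thus could not be called, however one-sided, and the absence of calls does not show equal detection. Scgb3a1, a small secreted protein of airway and other epithelia, had a value in 5 of 5 CEC samples and 0 of 5 healthy samples (exact p = 0.00794, adjusted p = 0.5). By the approximate rule of 3 divided by the number of samples, 0 of 5 allows a share of up to 60.0% of such samples. That rule is rough at 5 samples. Scgb3a1 also had a value in 3 of 5 DNBS and 5 of 5 Nissle samples. Its levels in the CEC samples were -3.23, -5.97, -6.04, -5.50 and -7.18. Il31ra, a receptor chain for IL-31, had a value in 5 CEC samples and 1 healthy sample (exact p = 0.0476, adjusted p = 1). Both genes are named because of these values. In all, 20 assays had at least 3 values in only 1 of the groups, 15 of them in the CEC group, among them Sele (E-selectin, an endothelial adhesion molecule) with 5 CEC and 2 healthy values and both assays of Csf3, the granulocyte growth factor.

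Set against the other DNBS-treated groups, the CEC group gave no called assay by limma. Between CEC and DNBS 0 of 572 assays were called (0.00%), 61 had an unadjusted p under 0.05 (10.7%), and the smallest adjusted p was 0.365. With array weights 21 assays were called between CEC and DNBS, 14 higher and 7 lower in the CEC group. Between CEC and Nissle 0 were called, 9 had an unadjusted p under 0.05 (1.57%), and the smallest adjusted p was 0.998. The differences from the shared healthy samples, side by side, were 4.65 for CEC, 6.44 for DNBS and 5.88 for Nissle in Chi3l3. In Cxcl2 they were 3.22, 4.78 and 3.57 in the same order, in S100a9 2.30, 3.96 and 3.17, and in the first Il6 assay 1.77, 4.62 and 2.96. In these 4 the CEC value was the smallest of the 3, but none was called for CEC minus DNBS. The adjusted p-values by limma were 0.712 for Chi3l3, 0.638 for Cxcl2, 0.659 for S100a9 and 0.447 for Il6. These 4 were picked from the assays described above, and the share of all 572 assays with this order was not counted. Their CEC levels were highest in CEC 1 and CEC 3. Single samples also stood apart in the Nissle group: the mean over the neutrophil list was 1.59 in Nissle 1, against -1.62, -2.08, -1.87 and -2.53 in Nissle 2 to 5. Other assays had opposite signs: for Cx3cr1 the differences were 0.95 for CEC, -0.33 for DNBS and 0.23 for Nissle. For the first Apoa1 assay they were 0.86, -0.73 and 0.24. CEC minus DNBS was 1.28 (SE 0.40, adjusted p = 0.390) for Cx3cr1 and 1.59 (SE 0.50, adjusted p = 0.390) for Apoa1, so neither difference was called. This Apoa1 assay lay in the first run of 54 assays. There the shifts from the average of the 20 samples were -1.43, 0.83, -0.24, -0.04 and -1.09 in DNBS 1 to 5. In CEC 1, 3, 5, 7 and 8 they were 0.80, 0.70, 0.29, -0.40 and 0.37. Cx3cr1 lay in the seventh run, where the shifts were -0.05, 0.39, -0.12, 0.05 and -0.76 in DNBS 1 to 5. In CEC 1, 3, 5, 7 and 8 they were 0.28, 0.41, 0.04, 0.02 and 0.19, and in healthy 5 the shift was -1.47. The part of these shifts in the Apoa1 and Cx3cr1 differences was not tested. For Saa1 the differences were 1.38 for CEC, 1.29 for DNBS and 0.90 for Nissle, and for C2 -0.86, -1.04 and -0.73.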

How the data were processed

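Total RNA of mouse ileal mucosa was measured by TaqMan OpenArray real-time PCR in 20 samples, per the labels' protocols. The values are raw cycle threshold scores as deposited, not normalized per the file headers, with no further step stated. A score of 40 was taken as no amplification and left missing (1273 of 12960 values, 9.82%, and 1 empty cell).

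Each sample was centred on its mean Ct over the 544 assays measured in every sample. limma 3.58.1 in R 4.3.3 was fitted to all 20 samples with 1 mean per group (4 groups, trended empirical Bayes, two-sided, Benjamini-Hochberg at 0.05 over 572 assays). The code was tested on simulated data. Fisher's exact test served for detection and exact permutation tests for depth. Nissle 3, 4 and 5 carry a contradictory group label and were kept. Symbols were updated through a RefSeq table (GRCm38.p6) for names alone: 17 were renamed and 7 did not match.

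The members and gene lists were chosen with earlier results of these data known, and 6 genes caught by name patterns were dropped from lists before differences were computed. Lists hold each gene once, by its assay of lowest mean Ct. The rule for named assays was: those called, the 12 smallest p-values in each direction, the 3 smallest of each list, and common cytokine readouts, with every assay of these genes. Further list members, and Saa3, Ptx3, Il22, Scgb3a1 and Il31ra, were named after their values were seen. Alternatives covered normalization, filters, the fit, a replicate block, each sample left out, and, added after seeing the data, centring within runs of 54 successive assays. Some named members are not reported here.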

Additional observations from a re-analysis of the deposited data

Results flagged for a closer look

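Within single groups of 5, 15 of 168 sets of values (8.93%) held a sample whose gap to its nearest neighbour was wide for the range of the set. Sets with only 3 values, such as Slurp1 in the CEC group, were counted among the 168 but could not be marked. The threshold is set to mark about 1 in 20 independent groups by chance, and these sets are not independent, since they share their samples. Healthy 5 was that sample in 9 of the 15. Its level, with the nearest of the other healthy samples after it, was -2.87 against -1.18 for Cx3cr1, 2.25 against 1.81 for C2, 3.05 against 1.84 for Tlr3 and -2.42 against -0.56 for Itgal. It was -7.71 against -4.64 and -3.79 against -2.18 for the Ifng assays, -1.05 against -1.78 for Tgfb2, 1.03 against 1.96 for Reg3a and 1.40 against 2.74 for Polr2a.

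The others lay in 4 further samples. CEC 7 had the lowest Atrn level of its group, -0.66, where the nearest CEC sample had 0.64. CEC 1 had -7.31 against -4.72 for the Il12b assay with the wide gap, and -6.33 against -2.92 for Cr2. Healthy 1b had -7.18 against -4.43 for that Il12b assay and -4.60 against -3.35 for Ptgs2, and healthy 6 had -1.12 against -2.15 for Cr2.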

How the results depend on the processing

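The single call depended on the processing. The count of called assays was 0 after quantile normalization, without normalization, centred on the median, fitted on both groups alone, without the trend, with the replicate block and without the 3 contradictorily labelled Nissle samples, and was 0 to 1 with single samples left out. Atrn then differed by -2.05 (adjusted p = 0.134) after quantile normalization, -2.15 (0.991) without normalization, -2.14 (0.0572) centred on the median, and -2.20 with both groups alone (0.207), without the trend (0.0752) and without the 3 Nissle samples (0.0687). With the replicate block it was -2.01 (0.790). The groups share the numbers 3 and 5 alone, whose deviations correlated at 0.13 and 0.114, so the block tests a shared number and no known pairing. With single samples left out Atrn ranged from -2.53 to -1.90. Its call held centred on reference assays (-2.30, 0.0234), with array weights (-2.29, 0.00317), with the other filters on missing or early values (0.0420 to 0.0490) and centred within runs of 54 assays (-2.76, 1.12e-07, and -2.75, 9.49e-07, also without healthy 5). Between CEC and DNBS 21 assays were called with array weights, 14 higher and 7 lower in the CEC group, against 0 after quantile normalization, without normalization, with both groups alone and with each sample left out, the other settings run for it. Causes were not tested.

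Of the other 81 named assays, 63 kept their sign in every alternative, 18 did not, and none passed the threshold in any (smallest adjusted p = 0.655). Signs turned as follows. With a Ct of 40 kept as a value, the difference was -2.97 for Slurp1 and 0.27 for Il6 (Mm01210733). After quantile normalization it was 0.041 for Hprt1 (Mm00446968). Centred on reference assays it was -0.017 for Hprt1 (Mm01318747) and -0.0036 for Alox5 (Mm01182747). With array weights it was -0.25 for Ifng (Mm99999071), 0.043 for Il1b (Mm99999061), 0.17 for Il12b (Mm00434174), 0.023 for Hprt1 (Mm01324427), -0.020 for Bmp3 (Mm00557790), 0.10 for Hprt1 (Mm00446968) and -0.038 for Hprt1 (Mm01318747). With the replicate block it was -0.61 for Il12b (Mm99999067), -0.74 for Ptgs2, -0.42 for Tslp, -0.079 for Alox5 (Mm01182750), -0.039 for Hprt1 (Mm01318747) and -0.29 for Alox5 (Mm01182747). Centred within runs of 54 assays it was -0.20 for Ifng (Mm99999071), 0.092 for Il1b (Mm99999061), -0.027 for Alox5 (Mm01182740) and -0.23 for Bmp3 (Mm00557790). The same without healthy 5 gave -0.25 for Ifng (Mm99999071), 0.23 for Il1b (Mm99999061), 0.027 for Il12b (Mm00434174), -0.13 for Alox5 (Mm01182740), -0.31 for Bmp3 (Mm00557790) and 0.032 for Hprt1 (Mm00446968). With single samples left out, differences crossed 0 in the ranges -0.22 to 0.57 for Ifng (Mm99999071), -0.12 to 0.49 for Ptgs2, -0.60 to 0.17 for Il1b (Mm99999061), -0.76 to 0.43 for Il12b (Mm00434174), -0.47 to 0.15 for Il17a, -0.13 to 0.82 for Tslp, -0.066 to 0.76 for Alox5 (Mm01182740), -0.41 to 0.045 for Irf3 (Mm01203177), -0.090 to 0.59 for Bmp3 (Mm00557790), -0.16 to 0.035 for Hprt1 (Mm00446968), -0.047 to 0.16 for Hprt1 (Mm01318747), -0.26 to 0.051 for Alox5 (Mm01182743) and -0.17 to 0.29 for Alox5 (Mm01182747). The difference in mean Ct ranged from -2.33e-01 to 0.072 cycles.

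With 5 samples a group the median SE was 0.42. Atrn, the 1 assay called, differed by -2.20 and was close to the threshold (adjusted p = 0.0452 by limma). Differences of 0.95 (SE 0.33), 3.22 (SE 1.28, Cxcl2) and 4.65 (SE 1.89, Chi3l3) were not called. Differences well above 0.95 could thus go uncalled, and more so where the spread was wide. Late or missing Ct values limit the rare transcripts. An undetermined Ct gives no level. The efficiency of the assays is unknown, so a cycle may be less than a factor of 2. Levels are relative to each sample's mean, so a shift of most assays at once would not be seen.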

Other observations

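Several assays with a wide spread among the CEC samples mark tissues or cells other than those described above, and they were picked for that spread. Adipoq encodes adiponectin, a hormone of fat cells. Its level was -1.88, -0.66, 0.24, 3.56 and -0.23 in the CEC samples, against 1.12, 2.48, 2.47, 1.09 and 0.66 in the healthy samples. CEC 1 and CEC 3 were the lowest and CEC 7 the highest of all 10 samples, and the difference was -1.36 (SE 1.0, adjusted p = 0.808 by limma). Ins2, an insulin gene of pancreatic beta cells, had -5.38, -4.46, -9.70, -7.19 and -2.52 in the CEC samples, against -0.20, -5.89, -4.16, -3.41 and -4.75 in the healthy samples. The groups overlapped, CEC 5 was the lowest, and the difference was -2.17 (SE 1.55). Its assay is of a kind that can amplify genomic DNA.

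Mbl2, a mannose-binding lectin made mainly by the liver, had -4.93, -8.41, -2.15, -6.98 and -2.63 in the CEC samples, against -1.22, -2.89, -5.69, -3.42 and -5.0 in the healthy samples. Here CEC 3 and CEC 7 were the lowest and CEC 5 and CEC 8 lay within the healthy range, so the sample order was not that of the neutrophil transcripts. Ccr4, a chemokine receptor of helper and regulatory T cells, had -6.54, -1.01, -2.33, -4.04 and -2.18 in the CEC samples, against -2.83, -3.66, -3.65, -2.53 and -3.80 in the healthy samples. CEC 1 was far below all other samples and CEC 3 was the highest, and the means differed by 0.08 (SE 0.73).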
